A study of Mus musculus with 19 samples.

Results

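The transcripts of 10 genes that mark the muscle and the supporting cells of blood vessel walls were followed in mouse hearts after transfer of a gut microbiome. The genes were taken by symbol from a table of 29726 genes. The first 6 (Acta2, Tagln, Cnn1, Myh11, Smtn and Lmod1) mark smooth muscle and the other 4 (Rgs5, Pdgfrb, Cspg4 and Abcc9) mark pericytes. All 10 were found and all 10 passed the filter on low values.

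The mice were wild-type C57BL/6NTac animals raised germ-free, 2 months old, that received faecal microbiota from wild-type donors (normal microbiome) or from Il10-/- donors (dysbiotic microbiome). The 19 hearts formed 4 groups, namely 4 males with the normal microbiome (M_NM), 5 males with the dysbiotic microbiome (M_DM), 5 females with the normal microbiome (F_NM) and 5 females with the dysbiotic microbiome (F_DM). A number after the group name, as in M_NM 1, is the replicate number in the labels. Every group carried a transferred microbiome, and no heart of a mouse kept germ-free was among them. Neither cage nor batch is given in the labels, and effects of microbiome and of cage or batch cannot be told apart. RNA came from a snap-frozen piece of heart.

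The labels name the cells as cardiocytes, but the piece held several cell types. The endothelial adhesion molecule Pecam1 lay at 25.7 to 34.8 FPKM, the fibroblast proteoglycan Dcn at 79.7 to 96.2 FPKM and the atrial myosin light chain Myl7 at 327 to 891 FPKM. FPKM, fragments per kilobase of transcript scaled to the mapped fragments of the library, is the unit of all levels given here. A rough estimate of the depth gave 16.4 to 23.0 M read pairs per library.

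Vascular smooth muscle cells ring the arteries and veins and set vessel diameter by sliding actin and myosin filaments. Many of their contractile genes are switched on by serum response factor (SRF) with its coactivator myocardin, which act through the CArG box, an A- and T-rich DNA element. Pericytes lie on capillaries inside the basement membrane, are recruited by PDGF-B from endothelial cells through the receptor Pdgfrb, and help to hold the capillary wall. In the heart neither cell type is the main source of RNA, which is mostly cardiomyocyte RNA. In a piece of whole tissue, fewer cells of a type and less RNA per cell cannot be told apart.

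Among the smooth muscle genes, Acta2 (ENSMUSG00000035783, chr19:34241090-34255590, minus strand, GRCm38) encodes smooth muscle alpha-actin. Tagln (ENSMUSG00000032085, chr9:45929619-45936058, minus strand) encodes transgelin, an actin-bundling protein. Cnn1 (ENSMUSG00000001349, chr9:22099216-22109630, plus strand) encodes calponin 1, which binds actin and restrains the myosin ATPase. Myh11 (ENSMUSG00000018830, chr16:14194535-14291372, minus strand) encodes the smooth muscle myosin heavy chain. Smtn (ENSMUSG00000020439, chr11:3517523-3540612, minus strand) encodes smoothelin, an actin-associated protein of contractile smooth muscle. Lmod1 (ENSMUSG00000048096, chr1:135324807-135368065, plus strand) encodes leiomodin 1, which starts new actin filaments.

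Among the pericyte genes, Rgs5 (ENSMUSG00000026678, chr1:169655501-169695813, plus strand) encodes a regulator that shortens G protein signals. Pdgfrb (ENSMUSG00000024620, chr18:61045150-61085061, plus strand) encodes the PDGF receptor beta, which fibroblasts carry too. Cspg4 (ENSMUSG00000032911, chr9:56865033-56899870, plus strand) encodes the NG2 proteoglycan of the pericyte surface. Abcc9 (ENSMUSG00000030249, chr6:142587862-142702315, minus strand) encodes SUR2, the regulatory subunit of ATP-sensitive potassium channels in pericytes, smooth muscle and also cardiomyocytes.

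Whether the library kit kept the strand is not given in the sources used here. Tagln overlaps Pcsk7 on the opposite strand, and 40.9% of the 75-base stretches of its transcript also occur, in reverse, in transcripts of Pcsk7 or Gm48529. Pcsk7 itself lay at 2.28 to 3.21 FPKM, against 15.2 to 38.5 FPKM for Tagln, so its reads and those of Tagln cannot be fully told apart. For Smtn the share was 9.54%, with Gm11946, which lay at 0 to 0.0611 FPKM. For Abcc9 it was 1.35%, and the other 7 members shared no such stretch with another gene.

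Because the contractile genes are textbook targets of SRF, promoter windows from 250 bases before to 50 bases after the annotated start were searched on both strands for the CArG box. RefSeq windows (GRCm38.p6) were found for 7 of the 10 members. Of these 7, none held an exact box, and an exact box occurred in 1.63% of 32851 promoter windows. With at most 1 mismatch, Acta2, Lmod1 and Cspg4 held a pair of matches each, while 21.1% of all windows held at least 1. The pair in Cspg4 overlaps. The matches in the contractile genes Acta2 and Lmod1 are shown 5′ to 3′ along the gene, with the matched bases in capitals.
Lmod1, 189 bases before the start, chr1:135324614-135324643, plus strand: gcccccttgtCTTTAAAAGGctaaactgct
Lmod1, 164 bases before the start, chr1:135324639-135324668, plus strand: ctgctctgtaCTAAATTTGGtcacgcagcg
Acta2, 84 bases before the start, chr19:34255438-34255467, minus strand: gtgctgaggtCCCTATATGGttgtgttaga
Acta2, 34 bases before the start, chr19:34255388-34255417, minus strand: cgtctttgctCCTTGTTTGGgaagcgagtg
A match describes letters only, and binding was not measured. Cnn1, Smtn, Rgs5 and Abcc9 had no such match in their windows.

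Acta2 and Rgs5 were the most abundant per transcript length, with means over all 19 hearts of 100.2 and 95.3 FPKM. Tagln followed at 25.0, Abcc9 at 21.6 and Smtn at 18.3 FPKM, then Pdgfrb at 9.93 and Myh11 at 9.88 FPKM. Cnn1 lay at 3.70, Lmod1 at 3.18 and Cspg4 at 1.16 FPKM. Low levels rest on few reads: the estimated read pairs per library were 83.4 to 313 for Cnn1, 142 to 246 for Cspg4 and 153 to 406 for Lmod1, against 6317 to 9279 for Rgs5. The estimates come from steps between low values and are rough.

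**Figure D1:**
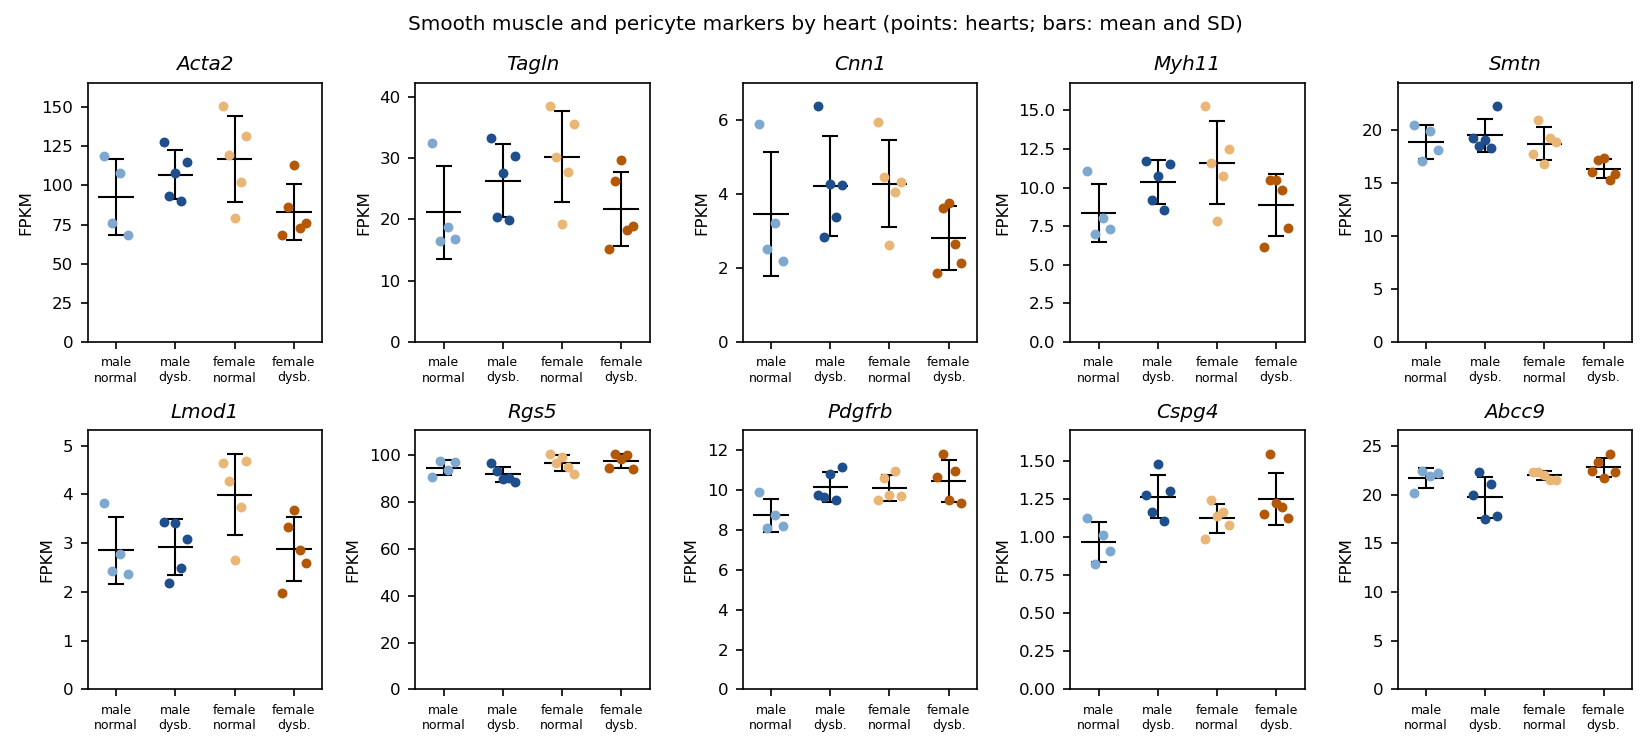
Level of each of the 10 genes in FPKM (vertical axes, from 0) in the 19 hearts by sex and microbiome ("dysb." is dysbiotic). Points are hearts and bars are mean and SD; Acta2 runs from 68.2 to 151 FPKM across hearts, Rgs5 from 88.8 to 101 FPKM, and the normal and dysbiotic ranges of every gene overlap in both sexes.

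Smooth muscle alpha-actin, Acta2, measured 119, 76.0, 108 and 68.4 FPKM in the M_NM hearts and 128, 93.1, 108, 89.7 and 115 FPKM in the M_DM hearts. In females it measured 151, 119.7, 79.1, 102 and 132 FPKM in F_NM and 68.2, 86.3, 113, 73.0 and 75.7 FPKM in F_DM. The male groups overlap, with M_NM 2 and 4 below all M_DM hearts, and in females F_DM 2 and 3 and F_NM 3 and 4 lie within the range of the other microbiome. The group means were 92.7 ± 24.3 (SD, n = 4), 107 ± 15.7 (n = 5), 117 ± 27.4 (n = 5) and 83.2 ± 17.9 FPKM (n = 5) in the order M_NM, M_DM, F_NM and F_DM.

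Transgelin, Tagln, measured 32.4, 16.5, 18.8 and 16.8 FPKM in M_NM and 33.2, 20.3, 27.6, 20.0 and 30.3 FPKM in M_DM. In F_NM it measured 38.5, 30.2, 19.3, 27.7 and 35.5 FPKM, and in F_DM 15.2, 26.3, 29.7, 18.2 and 18.9 FPKM. M_NM 1 stood far above the other M_NM hearts and within the M_DM range. F_NM 3 lay low among the normal females, as it did for Acta2.

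Calponin, Cnn1, measured 5.88, 2.51, 3.22 and 2.19 FPKM in M_NM and 6.37, 2.83, 4.28, 3.37 and 4.24 FPKM in M_DM. In F_NM it measured 5.93, 4.45, 2.62, 4.04 and 4.33 FPKM, and in F_DM 1.85, 3.62, 3.74, 2.65 and 2.14 FPKM. The same hearts were at the ends: M_NM 1, M_DM 1 and F_NM 1 were the highest of their groups, and F_NM 3 and F_DM 1 the lowest of theirs.

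Smooth muscle myosin, Myh11, measured 11.1, 6.99, 8.05 and 7.31 FPKM in M_NM and 11.7, 9.20, 10.8, 8.54 and 11.5 FPKM in M_DM. In F_NM it measured 15.3, 11.6, 7.86, 10.8 and 12.5 FPKM, and in F_DM 6.17, 10.5, 10.5, 9.84 and 7.38 FPKM. In males, 3 of the 4 normal hearts lay below all dysbiotic hearts and M_NM 1 lay among them.

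Leiomodin, Lmod1, ran from 2.36 to 3.83 FPKM in M_NM (median 2.60) and from 2.17 to 3.44 FPKM in M_DM (median 3.09). In females the medians were 4.27 FPKM in F_NM (range 2.65 to 4.67) and 2.85 FPKM in F_DM (range 1.98 to 3.67). The male groups overlapped over most of their range, and the female groups shared the range held by F_NM 3 and the higher F_DM hearts. Smoothelin, Smtn, was 18.9 ± 1.58 FPKM in M_NM (n = 4), 19.4 ± 1.60 in M_DM (n = 5), 18.7 ± 1.57 in F_NM (n = 5) and 16.3 ± 0.889 in F_DM (n = 5).

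Smtn varied less than the other contractile genes. The ratio of the highest to the lowest heart was 1.46 for Smtn, against 2.21 for Acta2, 2.36 for Lmod1, 2.48 for Myh11, 2.53 for Tagln and 3.43 for Cnn1. Within groups, the coefficient of variation (SD over mean) was 27.6% to 48.7% for Cnn1, 22.7% to 35.9% for Tagln and 5.45% to 8.41% for Smtn. F_DM 1 was the lowest of all 19 hearts in Acta2, Tagln, Cnn1, Myh11 and Lmod1, and F_NM 1 the highest in Acta2, Tagln and Myh11.

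**Figure D2:**
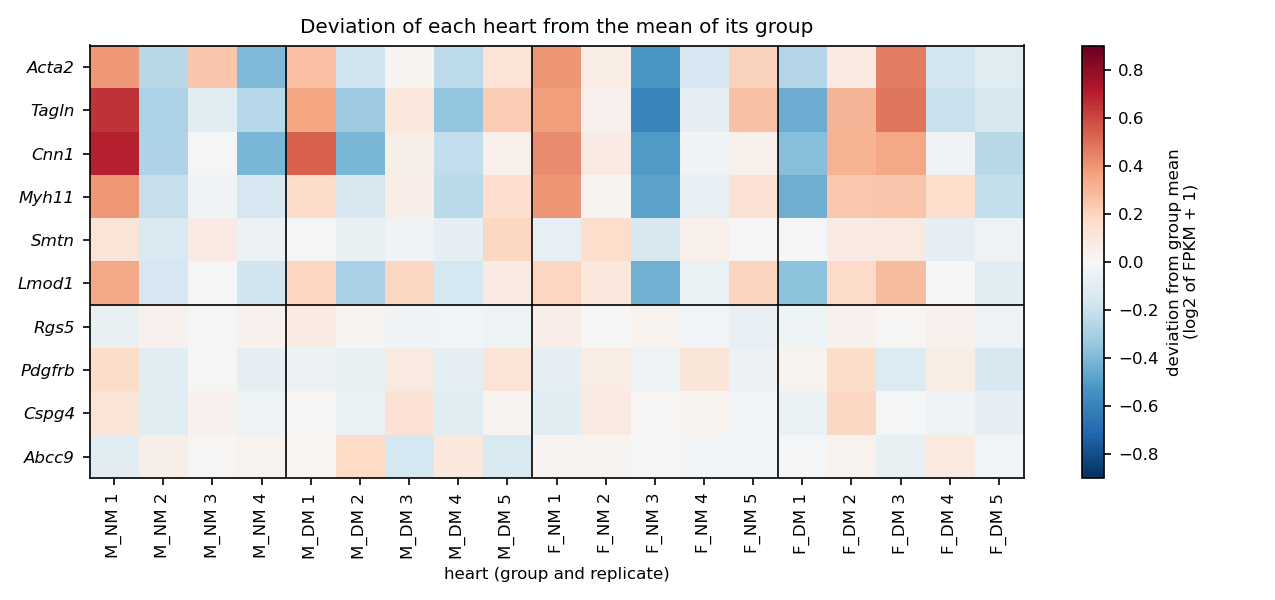
Deviation of each heart from its group mean on the log2(FPKM + 1) scale (colour, red above and blue below the mean) for each gene (rows) and heart (columns, group and replicate). Acta2, Tagln, Cnn1, Myh11 and Lmod1 share their colours heart by heart, with M_NM 1 high (Tagln 0.65) and F_NM 3 low (Acta2 -0.52), while Rgs5 stays near 0.

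These 5 genes (Acta2, Tagln, Cnn1, Myh11 and Lmod1, a grouping made after their values were seen) moved together from heart to heart. After removal of the group means from log2(FPKM + 1), Pearson's r over the 19 hearts was 0.855 to 0.955 in the 10 pairs among them, and Spearman's rho was 0.858 to 0.958. Each pair passed a permutation test with adjustment over the 45 pairs of members (adjusted p at most 4.5e-05 for r and 9e-05 for rho), where an unadjusted p of 1e-05 is the smallest that 100000 permutations can give. Without the 2 hearts farthest from the median, r was 0.813 to 0.944. The permutations treat the 19 deviations as exchangeable, although 4 group means were removed from them.

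Smtn followed these 5 genes less closely, with r of 0.507 to 0.616 and rho of 0.477 to 0.635; 4 of these 5 pairs passed by r, and Smtn with Myh11 (r = 0.51, adjusted permutation p = 0.0621) did not. No pair of the 5 genes with a pericyte gene passed (20 pairs, r from -0.494 to 0.485, rho from -0.491 to 0.470). Among the pericyte genes, Pdgfrb and Cspg4 had an r of 0.794 (rho 0.812, adjusted permutation p 0.000286 for both, r 0.681 without the 2 farthest hearts). Rgs5 and Abcc9 had an r of 0.547 (adjusted permutation p = 0.0381) and a rho of 0.640 (adjusted permutation p = 0.0131), with r 0.594 without the 2 farthest hearts. The other 4 pericyte pairs did not pass. Smtn had r 0.583 and rho 0.511 with Pdgfrb (adjusted permutation p 0.0267 and 0.0629, r 0.501 without the 2 farthest hearts), which passed by r only. With Abcc9 it had r -0.508 and rho -0.561 (adjusted permutation p 0.0621 and 0.0358, r -0.477 without the 2 farthest hearts), which passed by rho only. With Cspg4 it had r 0.599 and rho 0.667 (adjusted permutation p 0.0227 and 0.0101, r 0.621 without the 2 farthest hearts).

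**Figure D3:**
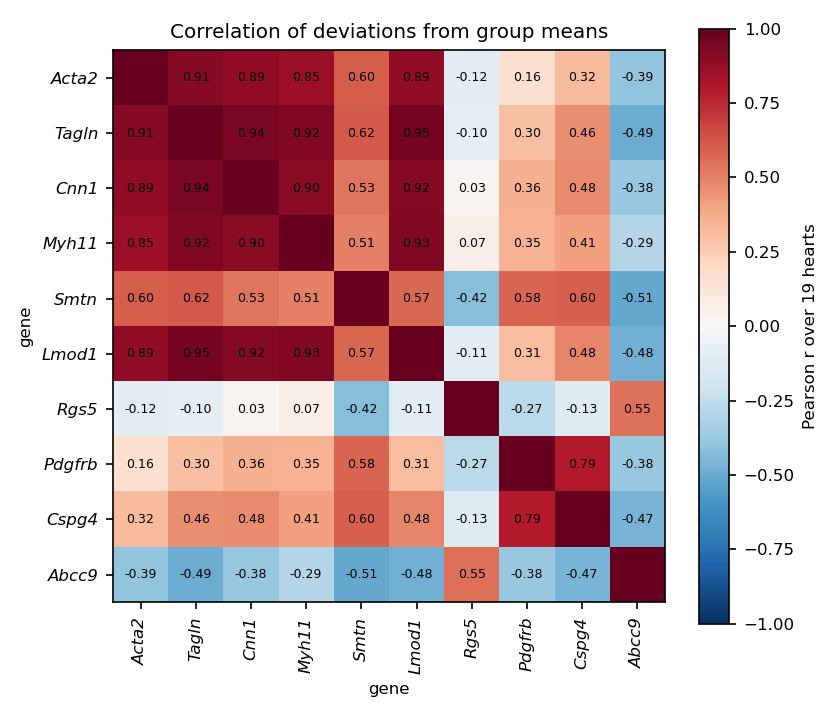
Pearson's r over 19 hearts between the members' deviations from their group means (both axes list the 10 genes; colour and number give r). Acta2, Tagln, Cnn1, Myh11 and Lmod1 form a block of r from 0.855 to 0.955, and Pdgfrb with Cspg4 reaches 0.794.

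Of 9461 genes ranked by the likeness of their deviations to those of Myh11 over the 19 hearts, the closest were Ccn3 (r = 0.94), a matricellular protein, Npnt (0.94), which encodes the matrix protein nephronectin, Lmod1 (0.93), Tagln (0.92) and Sost (0.92), which encodes the Wnt inhibitor sclerostin. Cnn1 ranked 6, Acta2 12 and Smtn 555. For Rgs5 the closest were Ppfia1 (0.77), Vps4b (0.74), Tmem106b (0.69), Prmt5 (0.68) and Cpsf2 (0.65), and Abcc9 ranked 42. These ranks describe the libraries, and the best of so many genes is high by selection.

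Myh11 was set against the mean deviation of 9 gene lists. Some lists share genes, among them Pln (smooth muscle and cardiomyocyte), Des (smooth muscle and pericyte) and Notch3 (pericyte and Notch pathway). Myh11 went with 14 other smooth muscle genes, not all of them contractile (r 0.893, rho 0.875, adjusted permutation p 9e-05 for both over the 9 relations, r 0.880 without the 2 farthest hearts). It also went with the fibroblast markers (r 0.580, adjusted permutation p 0.0405, rho 0.600, adjusted permutation p 0.0333, r 0.582 without the 2 farthest hearts). With the elastic artery genes r was 0.553 (adjusted permutation p 0.0419, rho 0.553, adjusted permutation p 0.0465), and r fell to 0.452 without the 2 farthest hearts. The relations with the endothelial (r 0.268), cardiomyocyte (r 0.382), atrial (r 0.320) and other pericyte (r 0.293) lists did not pass. Nor did those with SRF, its coactivators and the Notch pathway (r 0.0307) or with the PDGF ligands (r 0.249). The mean of the SRF list includes Tead1, which ran from 0.0822 to 7.63 FPKM, and the relation without Tead1 was not tested. The summed atrial markers ran from 1397 to 3501 FPKM in M_NM, 2059 to 4204 in M_DM, 1822 to 3068 in F_NM and 2297 to 2744 in F_DM, so the pieces of heart differed in their atrial transcripts. The part of the sampled region in the spread of the contractile genes was not tested.

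The effect of the dysbiotic microbiome was asked over both sexes (9 normal and 10 dysbiotic hearts), in each sex, and as the difference of that effect between the sexes. Differences are of log2(FPKM + 1) with their SE, positive where the dysbiotic group is higher, and the tests are limma with Benjamini-Hochberg adjustment over 10866 genes at a threshold of 0.05. Over both sexes 0 of the 10 members passed limma's test, where 5.67% of all genes tested did, 3.34% higher and 2.33% lower. The count was also 0 in males (1.91% of all genes), 0 in females (2.84%) and 0 for the difference of the effect between the sexes (0.396%). At an unadjusted p under 0.05 there were 2, 3, 3 and 6 members in these comparisons, where 17.4%, 13.6%, 13.9% and 7.41% of all genes reached that level. The normal and dysbiotic ranges of all 10 members overlapped in both sexes, while those of 4.70% of all genes in males and 4.85% in females did not.

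In males the 6 smooth muscle genes had differences above 0, and in females the same 6 had differences below 0, none of which passed. The medians over the 6 were 0.24 in males and -0.41 in females, against 0.021 and 0.011 over all genes tested. Acta2 differed by 0.23 ± 0.20 in males and -0.47 ± 0.19 in females, and Myh11 by 0.29 ± 0.18 and -0.35 ± 0.17. The difference of these effects between the sexes, female minus male, was -0.70 ± 0.27 for Acta2 (adjusted p = 0.545, limma) and -0.64 ± 0.24 for Myh11 (adjusted p = 0.510, limma). Since 5 of the 6 genes move together from heart to heart, their shared sign does not count as 6 separate observations.

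Tagln differed by 0.33 ± 0.24 in males and -0.46 ± 0.23 in females, and Cnn1 by 0.26 ± 0.24 and -0.47 ± 0.23. For Lmod1 the values were 0.030 ± 0.15 and -0.36 ± 0.14, and for Smtn 0.042 ± 0.069 and -0.18 ± 0.065. The Smtn fall in females had an adjusted p of 0.162 (limma) and one of 0.0209 when libraries were scaled by median ratios (-0.21), so its call depends on the scaling. When 1 heart was left out in turn, the male difference ran from 0.094 (without M_NM 4) to 0.36 (without M_NM 1) for Acta2 and from 0.12 to 0.49 for Cnn1 with the same hearts. It ran from 0.23 (without M_NM 2) to 0.54 (without M_NM 1) for Tagln and from 0.22 to 0.42 for Myh11 with the same hearts. That of Smtn turned negative without M_NM 2 or M_DM 5 (lowest -0.0043), and that of Lmod1 without M_NM 2, M_NM 4, M_DM 1 or M_DM 3 (lowest -0.031). In females the differences of the 6 genes stayed below 0 in every such case.

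**Figure D4:**
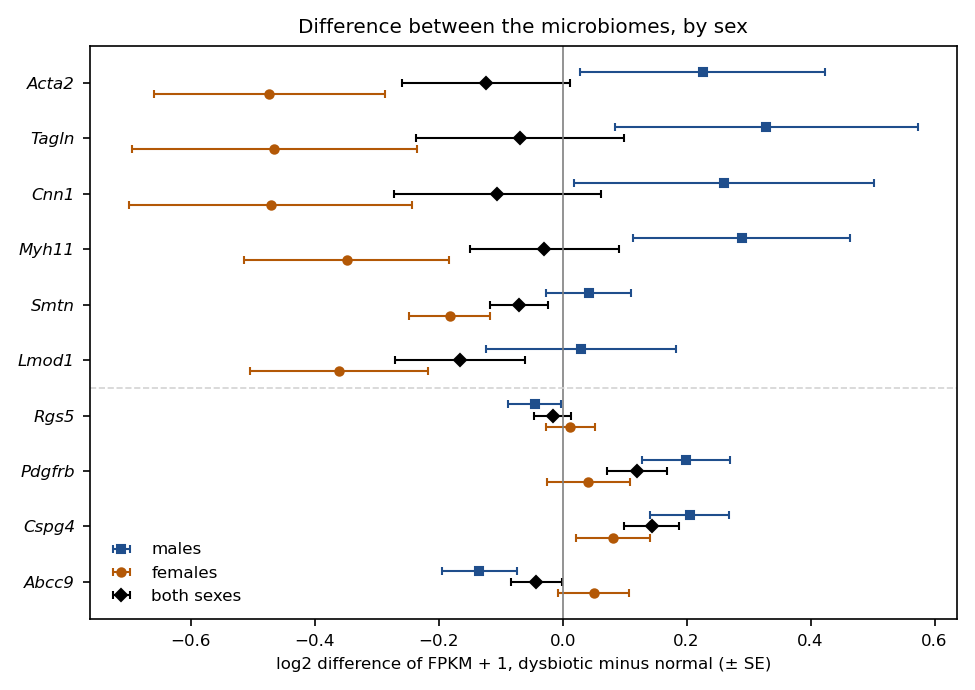
Difference of log2(FPKM + 1), dysbiotic minus normal (horizontal axis, points with SE bars), for each gene in males (squares), females (circles) and both sexes (diamonds). The 6 smooth muscle genes lie right of 0 in males and left of 0 in females, with no difference past the threshold, and the pericyte genes lie between -0.13 and 0.21.

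Over both sexes the smooth muscle genes differed by -0.17 ± 0.10 (Lmod1) to -0.030 ± 0.12 (Myh11). The signs of Tagln, Cnn1 and Myh11 turned positive without M_NM 1 (0.040, 0.011 and 0.035), and that of Myh11 also without M_DM 4, F_NM 1 or F_DM 1. The authors' deposited table gives a log2 ratio over both sexes of -0.264 for Lmod1 (p-value 0.0373, q-value 0.537).

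Rgs5, the steadiest member, had within-group coefficients of variation of 2.98% to 3.56%. It measured 90.6, 97.5, 93.9 and 97.2 FPKM in M_NM and 96.7, 93.5, 90.0, 90.4 and 88.8 FPKM in M_DM. In F_NM it measured 101, 96.9, 99.1, 95.0 and 92.0 FPKM, and in F_DM 94.8, 100.5, 98.3, 100.1 and 94.3 FPKM. All hearts lay within a ratio of 1.14 of each other, and the groups overlapped. Its differences were -0.045 ± 0.043 in males and 0.013 ± 0.040 in females, and -0.016 ± 0.029 over both sexes (adjusted p = 0.839, limma).

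Cspg4, the NG2 proteoglycan, came nearest to the threshold. It measured 1.12, 0.822, 1.02 and 0.907 FPKM in M_NM and 1.28, 1.17, 1.48, 1.11 and 1.31 FPKM in M_DM. In females it measured 0.991, 1.24, 1.14, 1.16 and 1.08 FPKM in F_NM and 1.16, 1.55, 1.23, 1.20 and 1.13 FPKM in F_DM. In males the ranges overlapped only through M_NM 1 and M_DM 4, and in females F_DM 2 stood above all others. The difference was 0.14 ± 0.044 over both sexes (adjusted p = 0.0629, limma), 0.21 ± 0.064 in males and 0.082 ± 0.060 in females. It passed when libraries were scaled by median ratios (0.13, adjusted p = 0.0468, limma), without M_NM 1 (0.16, adjusted p = 0.0339, limma) and without M_DM 4 (0.16, adjusted p = 0.0452, limma). The authors' deposited table gives it a log2 ratio of 0.256 with a q-value of 0.0579. At this level the pseudocount of 1 makes the log2 difference smaller than that ratio.

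Pdgfrb measured 9.90, 8.08, 8.77 and 8.20 FPKM in M_NM and 9.75, 9.67, 10.8, 9.49 and 11.2 FPKM in M_DM. M_NM 1 alone lay within the range of the M_DM hearts. In females it was 10.1 ± 0.640 FPKM in F_NM (n = 5) and 10.5 ± 1.04 FPKM in F_DM (n = 5). The difference was 0.20 ± 0.071 in males, 0.041 ± 0.067 in females and 0.12 ± 0.049 over both (adjusted p = 0.192, limma).

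Abcc9 measured 20.2, 22.5, 21.9 and 22.2 FPKM in M_NM and 19.9, 22.4, 17.6, 21.1 and 17.8 FPKM in M_DM. M_DM 3 and 5 were the lowest of all hearts, and the groups overlapped. In females it was 22.0 ± 0.422 FPKM in F_NM (n = 5) and 22.8 ± 0.987 FPKM in F_DM (n = 5). The difference was -0.13 ± 0.060 in males (adjusted p = 0.320, limma) and 0.050 ± 0.057 in females. Kcnj11, which encodes the pore of the cardiomyocyte form of the channel, was 26.5 ± 0.856, 26.0 ± 0.993, 27.1 ± 1.81 and 27.1 ± 2.17 FPKM in M_NM, M_DM, F_NM and F_DM.

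Between the sexes (10 female and 9 male hearts), 31.4% of all genes passed, 23.4% higher and 7.94% lower in females, and 2 of the 10 members did. Smtn was lower in females (log2 difference -0.13 ± 0.047, adjusted p = 0.0474, limma) and Abcc9 was higher (0.11 ± 0.041, adjusted p = 0.0467, limma). At an unadjusted p under 0.05 there were 3 members, Pdgfrb (0.11 ± 0.049) being the other, and 42.2% of all genes. Neither call held under all settings. When 1 heart was left out in turn, Smtn still passed in 6 of 19 cases (without M_NM 2, M_DM 2, M_DM 4, F_NM 2, F_DM 2 or F_DM 3) and Abcc9 in 3 of 19 (without M_DM 2, M_DM 4 or F_DM 3). The Abcc9 difference was 0.053 under scaling by median ratios, and Pdgfrb passed without M_NM 1, M_DM 5 or F_DM 5.

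None of the other listed smooth muscle genes passed in a comparison of the microbiomes, while between the sexes Pcp4l1 was higher and Synpo2 lower in females. Pln and Des, also on the cardiomyocyte and other pericyte lists, had means of 1341 and 419 FPKM. Of 16 listed, Ppp1r14a and Kcnmb1 were below the filter, and of the 14 tested 0 rose and 0 fell in limma's test, whether the sexes were pooled or taken apart. At an unadjusted p under 0.05, 1 was higher over both sexes (Pcp4l1), 3 were higher in males (Pcp4l1, Sncg and Des) and 3 were lower in females (Actg2, Csrp1 and Itga8). In males 12 of the 14 had a difference above 0 (median 0.14), and in females 5 of the 14 did (median -0.11). Actg2, the enteric smooth muscle actin, was 1.58 ± 0.991 and 2.29 ± 0.690 FPKM in M_NM and M_DM and 2.67 ± 0.940 and 1.40 ± 0.405 FPKM in F_NM and F_DM. The difference of its microbiome effect between the sexes had an adjusted p of 0.414 (limma). Of 15 regulators of these genes, SRF, its coactivators, its competitors and the Notch pathway, 0 rose and 0 fell over both sexes in limma's test, with a median difference of 0.0058. At an unadjusted p under 0.05, 2 of them were higher and 1 lower, where 17.4% of all genes reached that level. The higher ones were Notch3 (0.14 ± 0.05, adjusted p = 0.0957, limma) and the SRF coactivator Myocd (0.09 ± 0.04, adjusted p = 0.257, limma). Fhl2 was the lower one (-0.11 ± 0.05, adjusted p = 0.278, limma). Srf itself was 17.8 ± 1.72, 18.1 ± 1.01, 16.9 ± 1.18 and 16.6 ± 1.49 FPKM in M_NM, M_DM, F_NM and F_DM.

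In a second list of pericyte genes, several rose with the dysbiotic microbiome. All 16 of its genes passed the filter, but Ebf1, a transcription factor, did so through the dysbiotic hearts alone. It reached 1 FPKM in 5 dysbiotic hearts and in 0 normal hearts, where its highest value was 0.914 FPKM, so its place among the tested genes depends on the group in which it is high. Of the 15 other genes, 5 were higher over both sexes and 0 lower, where 3.34% of all genes tested were higher and 2.33% lower. A difference above 0 was seen in 13 of the 15 (median 0.14, all genes 0.017). With Ebf1 the count was 6 of 16. In males 2 passed (Cd248 and Ndufa4l2, where 1.91% of all genes did), and in females the 1 gene that passed was Ebf1 (2.84% of all genes). The list was chosen with earlier results of these data known, so its counts only describe these hearts. Whether the list differs from the 4 markers was not tested.

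The 4 with the smallest p were Cd248, Gucy1a1, Gucy1b1 and Ndufa4l2. Cd248, which encodes endosialin, a surface glycoprotein of pericytes and fibroblasts, measured 3.76, 2.84, 2.56 and 2.69 FPKM in M_NM and 3.94, 4.37, 4.90, 3.66 and 5.12 FPKM in M_DM. In females it measured 2.17, 3.07, 2.82, 2.58 and 2.85 FPKM in F_NM and 3.95, 4.30, 3.41, 2.89 and 4.63 FPKM in F_DM. The ranges overlapped in males because M_NM 1 exceeded M_DM 4, and in females because F_DM 4 lay below F_NM 2. The difference was 0.41 ± 0.08 (adjusted p = 0.00230, limma).

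Gucy1a1 and Gucy1b1 encode the subunits of soluble guanylate cyclase, the nitric oxide receptor of smooth muscle and pericytes. Gucy1a1 rose by 0.21 ± 0.05 (adjusted p = 0.00879, limma), with means of 2.70 ± 0.362 FPKM in M_NM, 3.43 ± 0.320 in M_DM, 3.02 ± 0.107 in F_NM and 3.51 ± 0.318 in F_DM. Gucy1b1 rose by 0.20 ± 0.05 (adjusted p = 0.0119, limma), with means of 3.89 ± 0.445, 4.61 ± 0.316, 3.90 ± 0.328 and 4.62 ± 0.330 FPKM in the same order. Ndufa4l2, a mitochondrial protein induced by hypoxia, rose by 0.21 ± 0.05 (adjusted p = 0.0139, limma), with means of 10.5 ± 1.03, 13.4 ± 1.80, 12.4 ± 0.225 and 13.5 ± 0.613 FPKM. Ebf1 differed by 0.14 ± 0.04 (adjusted p = 0.0235, limma), with the limit on its entry given above. Kcnj8, which encodes the pore that pairs with Abcc9 in pericytes, differed by 0.19 ± 0.05 (adjusted p = 0.0488, limma). Kcnj8 did not pass under either other scaling, with no filter, with additive terms or with the replicate block, and it passed in 6 of 19 cases when 1 heart was left out. Cd248, Gucy1a1, Gucy1b1 and Ndufa4l2 passed under each of these settings and in all 19 such cases.

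**Figure D5:**
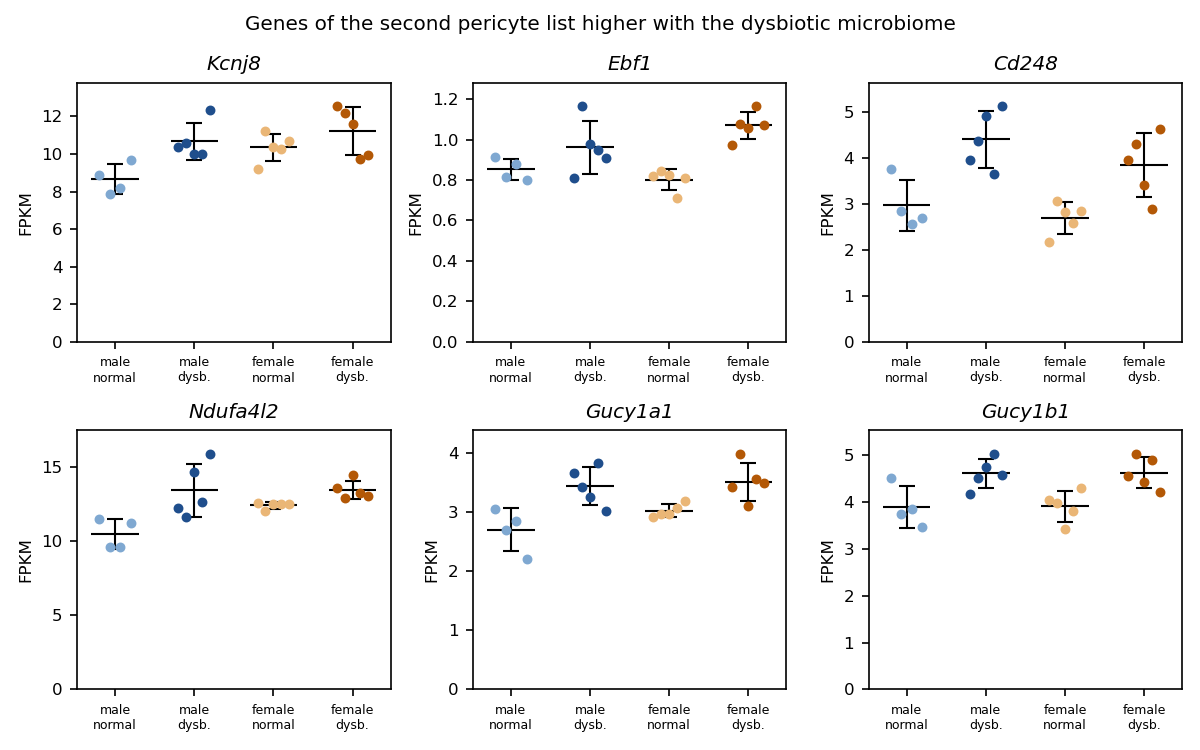
FPKM (vertical axes, from 0) of the 6 genes of the second pericyte list that were higher with the dysbiotic microbiome over both sexes. Of these, Ebf1 passed the filter on low values through the dysbiotic hearts alone. Points are hearts and bars are mean and SD; the mean of Cd248 was 2.96 FPKM in M_NM, 4.40 in M_DM, 2.70 in F_NM and 3.84 in F_DM.

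Some markers of other cells passed in the same comparison, in which 3.34% of all genes tested were higher and 2.33% lower. An unadjusted p under 0.05 was reached by 17.4% of all genes. Of 10 endothelial markers, 2 rose, Emcn (0.29 ± 0.05, adjusted p = 0.00101, limma) and Tek (0.17 ± 0.05, adjusted p = 0.0495, limma), and 0 fell. Tek lay just under the threshold and passed in neither sex alone (adjusted p = 0.499 in males and 0.0974 in females, limma). At an unadjusted p under 0.05, 3 of the 10 were higher and 2 lower, the latter being Esam (-0.14, adjusted p = 0.0543, limma) and Pecam1 (-0.099, adjusted p = 0.223, limma). The summed list ran from 121 to 135 FPKM in M_NM, 125 to 141 in M_DM, 133 to 158 in F_NM and 128 to 147 in F_DM. Of 9 fibroblast markers tested, 0 rose and 2 fell, Col1a1 (-0.24 ± 0.06) and Col3a1 (-0.31 ± 0.07), with 0 higher and 3 lower at an unadjusted p under 0.05. Both passed in females only. Col1a1 differed by -0.40 in females (adjusted p = 0.0157, limma) and -0.090 in males (adjusted p = 0.725, limma). For Col3a1 the values were -0.46 (adjusted p = 0.0101, limma) and -0.17 (adjusted p = 0.498, limma). The difference of these effects between the sexes did not pass (adjusted p = 0.581 for Col1a1 and 0.667 for Col3a1, limma). The summed fibroblast list ran from 507 to 613, 563 to 591, 662 to 713 and 622 to 724 FPKM. No marker of either list was at 0 in any library. Their part in the change of the second pericyte list was not tested. Of 10 cardiomyocyte markers 0 passed limma's test, and 0 had an unadjusted p under 0.05. Of 5 atrial markers 0 passed, with 1 (Myl7, higher) at an unadjusted p under 0.05 and a median difference of 0.26. Of 8 elastic artery genes 1 passed, Eln, which encodes elastin and was lower (-0.32 ± 0.07), with 1 higher and 5 lower at an unadjusted p under 0.05.

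Of 4 tested PDGF ligands and partner receptors 0 passed limma's test over both sexes and 0 had an unadjusted p under 0.05, and Pdgfc was below the filter. Pdgfb was 6.93 ± 0.658, 6.33 ± 0.657, 5.97 ± 0.432 and 6.42 ± 0.798 FPKM in M_NM, M_DM, F_NM and F_DM. Of 18 tested genes, relatives of the members together with the channel pores Kcnj8 and Kcnj11, 3 rose and 1 fell over both sexes. Of all genes tested, 3.34% were higher and 2.33% lower in that comparison. Lmod3, a leiomodin of striated muscle, rose by 0.21 ± 0.04 (adjusted p = 0.00705, limma), and Smtnl2, a smoothelin-like gene, by 0.21 ± 0.05 (adjusted p = 0.0142, limma). Cnn3, a calponin found outside smooth muscle as well, was lower by a log2 difference of -0.19 ± 0.04 (adjusted p = 0.00597, limma). Kcnj8, the other riser, is a pore that pairs with Abcc9 and not its relative, and was also counted in the second pericyte list. The unadjusted p was under 0.05 for 3 higher and 2 lower of the 18 genes, the latter being Cnn3 and Lmod2. Of all genes, 17.4% reached that level. Lmod2, at a mean of 341 FPKM against 19.7 FPKM for Lmod3, differed by -0.18 ± 0.06 (adjusted p = 0.118, limma). The members of these families in smooth muscle, Lmod1, Smtn and Cnn1, did not pass in that comparison, and the difference between relatives was not tested.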

How the data were processed

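Heart RNA of 19 mice was sequenced from oligo(dT) libraries. The submitters' processing notes list HISAT2 2.0.4, cutadapt 1.9, DESeq2 and StringTie 1.3.4d, with no role for each. They name the build hg38, while 99.7% of the identifiers are in mouse GENCODE M21, which gave the GRCm38 positions. Per the file headers, the authors deposited FPKM per gene and library, a fold change (ratio), its log2 value, a p-value and a q-value. The ratio was checked to be that of the mean FPKM of the 2 microbiomes over both sexes, within 1%. Depth was estimated from steps between low values and sought only within a range fixed beforehand. Of these values, 15.1% to 18.2% lay on a step within 0.05, so counts were not recovered. The mitochondrial share of summed FPKM was 51.1% to 57.4%.

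The filter kept 10866 genes that reached 1 FPKM in 4 or more libraries. Their log2(FPKM + 1) values entered limma-trend with robust empirical Bayes (limma 3.58.1 in R 4.3.3), as a single two-sided fit of the 19 libraries with a mean for each of the 4 groups. A fold change on this scale understates the change of low genes. Replicates are separate mice, and p-values treat them as independent. The model was tested on simulated data. Correlations used 100000 permutations (scipy 1.17.1), two-sided. The members and gene lists were chosen with earlier results of these data known. All 10 members are named, then up to 4 genes per list by smallest p among those that passed in a comparison of microbiomes, and the 5 genes most like Myh11 and Rgs5. Genes outside this rule (Srf, Myocd, Notch3, Fhl2, Tead1, Pdgfb, Pcp4l1, Sncg, Des, Pln, Csrp1, Itga8, Synpo2, Esam, Kcnj11, Actg2, Ebf1, Kcnj8, Lmod2, Pecam1, Dcn and Myl7, and those a count of 5 or fewer holds) were added after their values were seen. Alternatives covered scaling, pseudocount, filter, model terms, the replicate number as a block and leaving out each library.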

Additional observations from a re-analysis of the deposited data

Results flagged for a closer look

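In 3 of 40 tests of a group's highest or lowest heart, 1 heart stood apart from the rest of its group by Dixon's test at the 95% level, where chance flags about 1 in 20. Tagln in M_NM 1 was 32.4 FPKM, with a gap to the next heart of 0.854 of the group's range. Smtn in M_DM 5 was 22.2 FPKM (0.756 of the range). Cspg4 in F_DM 2 was 1.55 FPKM (0.767 of the range).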

How the results depend on the processing

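The number of members that passed changed in these cases. Under median-ratio scaling it was 1 over both sexes (Cspg4), 1 in females (Smtn) and 1 between the sexes (Smtn). Between the sexes it was 1 after rescaling without mitochondrial genes (Smtn), 0 with no filter and 0 with additive terms. That rescaling raised all values, so the unchanged filter and pseudocount weighed less. Its results do not reflect scaling alone. Leaving out 1 library gave 0 to 1 over both sexes and 0 to 2 between the sexes. It gave 0 in males, in females and for the difference of the microbiome effect between the sexes. The second pericyte list held 5 to 6 risers under the other settings (Ebf1 was lost under the stricter filter, Kcnj8 under 5 others). It held 4 (without M_NM 2) to 8 (without M_NM 1) when 1 library was left out, a check added after its count was seen. These counts include Ebf1 where it passed, with the limit on its entry given above. Over the single members, 1247 alternative values kept their side of the threshold, of which 24, none of them called, turned sign; 7 gained a call, 36 lost one and 0 called values turned sign. Of all genes, the calls in males (207) were 97 with no filter, 106 under the replicate block, 81 with males only, and 60 (without M_NM 2) to 258 without 1 library. In females (309) they were 169 to 356 without 1 library. For the difference of the microbiome effect between the sexes (43) they were 22 with no filter and 24 to 102 (without M_DM 5) without 1 library. Genes of few reads (Cnn1, Cspg4 and Lmod1) carry more counting error than the rest.

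With the replicate number as a block, 1 member passed between the sexes (Abcc9). In their deviations from group means, same-numbered hearts correlated at -0.489 to 0.529 over 27 pairs (median -0.032). For hearts of other groups with other numbers the median was -0.021, and 3 of 19 hearts correlated best with their own number. The labels do not say whether a shared number means shared handling, and these correlations cannot settle it.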
